A study of Mus musculus with 6 samples.

Results

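The Mage family was followed through testis libraries of mice with and without the long non-coding RNA Teshl. Its members were taken by name, as every symbol of Mage followed by a, b, c, d, e, f, g, h or l and a digit. The rule found 23 symbols among 25165: 8 Magea, 8 Mageb (the pseudogene Mageb16-ps1 included), 2 Maged (Maged1 and Maged2), 2 Magee (Magee1 and Magee2) and the single symbols Magef1, Mageh1 and Magel2. No Magec or Mageg symbol was matched. GENCODE M21 (GRCm38) places 20 of them on the X chromosome, and Mageb3, Magel2 and Magef1 on chromosomes 2, 7 and 16. Total RNA came from testes of C57BL/6 mice aged 8 weeks, in 6 libraries, of which 3 carry KO and 3 carry WT in the title. The study's design text gives the KO animals as deficient for NR_038002, the transcript of Teshl, and no other allele or treatment is named for either group. The genotype field gives the opposite of the titles for all 6 libraries, so groups follow the titles here and KO and WT stand for them. The sources used here do not say how the deletion was made or whether libraries came from separate or pooled animals. The p-values below therefore set group differences against the spread among these libraries and reach nothing wider, and that spread may be technical.

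Mage proteins share a domain, the MAGE homology domain, through which many of them bind and redirect E3 ubiquitin ligases. Magea and Mageb genes are transcribed mainly in male germ cells, human relatives are reactivated in tumours, and these genes lie as multicopy clusters on the X chromosome. The Maged, Magee, Mageh and Magel genes are transcribed more widely, in brain and other somatic tissues among others.

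The gene of the targeted transcript, 1700027A15Rik, was at 0.385 FPKM in KO replicate 1, listed at 0 in KO replicates 2 and 3, and at 1028, 989 and 1081 FPKM in the WT libraries. FPKM are fragments counted per transcript, divided by its length and by the size of the library. Its log2 fold change, KO minus WT, was -9.86 in limma (adjusted p = 2.91e-08), which matches the titles and not the genotype field. The depth, read from the spacing of low values, was about 28200000 to 38900000 fragments per library. No marker of spermatogonia, spermatocytes, round or elongating spermatids (10 each) was listed at 0 in any library. The summed level of the spermatogonia markers was 47.4 to 52.9 FPKM in KO and 53.9 to 62.3 FPKM in WT, without overlap. That of the elongating spermatid markers was 35988 to 38154 FPKM in KO and 30736 to 34704 FPKM in WT, also without overlap. In bulk tissue, fewer cells of a type and less RNA per cell cannot be told apart. The sums of the other marker lists (spermatocytes, round spermatids, Sertoli, Leydig and peritubular cells, macrophages, blood and vessels, epididymis) overlapped between the groups. All 8 Leydig markers still had a negative log2 fold change in limma, as did 8514 of all 12952 tested symbols. Of the 10 round spermatid markers 9 had a positive and 1 a negative one. In both lists 0 had an adjusted p under 0.05.

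Most Mage symbols were low in testis. The test required 1 FPKM or above as the mean of KO or of WT, which 8 of the 23 reached: Mageb1, Mageb2, Mageb4, Mageb5, Mageb16, Maged1, Maged2 and Magee1. The other 15, among them all 8 Magea symbols, were under it. Maged1 had the highest level of the family and Mageb5 that of the germ-cell subfamilies. Of the 8 tested, 1 was higher in KO and 0 lower (limma, Benjamini-Hochberg adjusted over 12952 symbols, threshold 0.05). Before adjustment, 3 members were higher and 1 was lower at a limma p under 0.05, where 5.38% of all tested symbols were higher and 8.89% lower. Among X-linked symbols those shares were 32.1% and 6.83%, so 3 of 8 is near the share of the X chromosome. Over all tested symbols 0.788% were called higher and 0.363% lower, and 14.2% of the 527 tested X-linked symbols were called higher. All 8 tested members are X-linked, so 1 call among them is close to the share over the X chromosome as a whole. The called member was Mageb5.

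**Figure D1:**
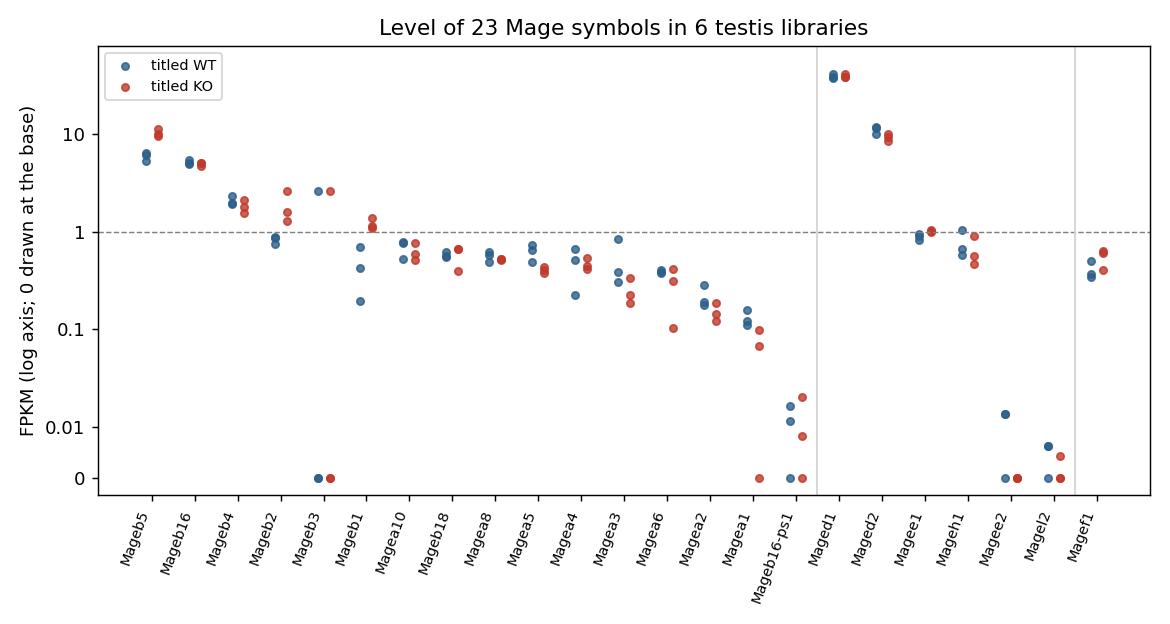
Level of each Mage symbol in each library in FPKM, on a log axis with values of 0 drawn at the base. Points are libraries (blue WT, red KO), grey lines separate Magea and Mageb, then Maged, Magee, Mageh and Magel, then Magef1, and the dashed line marks 1 FPKM; Maged1 stands highest, and Mageb5 is the tested symbol whose groups lie clearly apart above 5 FPKM.

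Mageb5 rose in the KO testis. GENCODE M21 gives it 2 exons at 91779544 to 91783018 of the X chromosome, on the minus strand (ENSMUSG00000061392.2). The KO libraries held 9.46, 11.2 and 9.97 FPKM and the WT libraries 6.43, 5.36 and 6.18 FPKM. Every KO library lay above every WT library, which 5.92% of all tested symbols also showed in this direction. That share was not computed for X-linked symbols alone. Of these, 32.1% were higher at a limma p under 0.05 before adjustment, against 5.38% of all. The means were 10.2 ± 0.904 and 5.99 ± 0.561 FPKM (SD, n = 3 each), a 1.71-fold difference. On the log2(FPKM + 1) scale, used for every limma difference below unless another pseudocount is named, limma put the difference at 0.68 ± 0.08 (SE), with an adjusted p of 0.00432. About 235 to 526 fragments per library stood behind these values.

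A near copy of Mageb5 carries another name and so lies outside the 23. Gm14781, at 91632194 to 91635671 of the X chromosome on the plus strand, had the same coding length of 1098 bases and differed from Mageb5 at 4 of them (99.6% identity). Those substitutions were G463A, C636T, A704C and C1032T, with the base of Mageb5 first, that of Gm14781 last, and positions counted from the first base of the GENCODE coding sequence. The stretch around the first of them shows how little separates reads of the copies, with the differing base in capitals (Mageb5 at chrX:91780294-91780324, minus strand; Gm14781 at chrX:91634891-91634921, plus strand; GRCm38).
Mageb5: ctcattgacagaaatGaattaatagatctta
Gm14781: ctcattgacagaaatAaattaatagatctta
Gm14781 was at 12.2, 14.99 and 12.1 FPKM in KO and 7.93, 6.91 and 8.29 FPKM in WT. Here too the groups did not overlap. Limma put the log2 difference at 0.69 ± 0.09 (SE), with an adjusted p of 0.0088 that became 0.0527 without WT replicate 1. The sources used here do not say how reads were divided between the copies. Their sum depends little on that division: it was 23.3 ± 2.53 FPKM in KO and 13.7 ± 1.24 FPKM in WT (SD, n = 3 each), a log2 ratio of 0.77. Ratios of sums, here and below, are of means in FPKM with no pseudocount and are not on the scale of the limma differences. The summed level of the elongating spermatid markers, given above, was also higher in every KO library than in every WT library. Of these 10 markers 8 had a positive and 2 a negative log2 difference. Limma called 0 of them, and before adjustment 5 were higher and 0 lower at a limma p under 0.05. Over all tested symbols those shares were 5.38% and 8.89%. The part of these markers in the Mageb5 result was not tested.

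Mageb1 and Mageb2, the other near-identical pair of this stretch of the X chromosome, were also at higher levels in KO but did not pass. Each stands on 2 rows of the deposited tables, which were summed. Mageb1 (92015191 to 92016333, minus strand) was at 1.15, 1.10 and 1.38 FPKM in KO and 0.428, 0.198 and 0.707 FPKM in WT. The libraries of the groups did not overlap, as for 5.92% of all tested symbols in this direction, and the means were 2.73-fold apart. Limma gave a log2 difference of 0.63 ± 0.12 (SE) with an adjusted p of 0.0569, and with a pseudocount of 0.1 one of 1.38 with an adjusted p of 0.123. Mageb2 (91331690 to 91333360, plus strand) was at 1.29, 2.61 and 1.61 FPKM in KO and 0.862, 0.749 and 0.889 FPKM in WT. Its groups did not overlap either, KO replicate 2 was the highest library, and the means were 2.20-fold apart. Limma gave 0.60 ± 0.15 (SE) with an adjusted p of 0.145, and with a pseudocount of 0.1 it gave 0.998 with an adjusted p of 0.0952. Each passed only with a particular library left out. Mageb1 passed without WT replicate 3 (log2 fold change 0.76, limma adjusted p = 0.00408), which also raised all calls from 149 to 233. Mageb2 passed without KO replicate 1 (0.74, limma adjusted p = 0.0395). With other single libraries left out, the limma adjusted p was 0.0967 to 0.209 for Mageb1 and 0.141 to 0.367 for Mageb2.

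The coding sequences of this pair, 1140 bases each in GENCODE M21, differ at 2 bases (99.8% identity), C98T and A498G, with the base of Mageb1 first. Reads that cover neither position cannot tell these coding sequences apart. The second difference is shown in capitals (Mageb1 at chrX:92015821-92015851, minus strand; Mageb2 at chrX:91332237-91332267, plus strand; GRCm38).
Mageb1: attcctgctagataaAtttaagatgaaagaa
Mageb2: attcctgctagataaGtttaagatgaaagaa
Summed over the pair, the level was 2.44, 3.71 and 2.99 FPKM in KO and 1.29, 0.946 and 1.595 FPKM in WT. All KO sums lay above all WT sums, with means of 3.05 ± 0.637 and 1.28 ± 0.325 FPKM (SD, n = 3 each) and a log2 ratio of 1.25.

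Mageb3, a further copy that aligned to Mageb2 at 98% identity, lies as a single exon on chromosome 2 (121953752 to 121956092). It was listed at 0 in 4 libraries and at 2.60 FPKM in KO replicate 3 and 2.59 FPKM in WT replicate 3. Those levels equal about 236 fragments in KO replicate 3 and 196 in WT replicate 3, whereas 3 fragments would give at most 0.0455 FPKM in any library. The groups did not differ in this pattern. With Mageb3 added, the sum of Mageb1 and Mageb2 became 2.44, 3.71 and 5.58 FPKM in KO. In WT that sum was 1.29, 0.946 and 4.18 FPKM, and the groups overlapped. Its exon overlaps one of Ctdspl2 on the other strand, and the sources used here name no strand setting for the counting.

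The other tested germ-cell members, Mageb16 and Mageb4, showed no difference beyond the spread. Mageb16 was at 4.74, 5.08 and 5.07 FPKM in KO and 4.94, 5.10 and 5.40 FPKM in WT, with overlapping groups (log2 difference -0.04 ± 0.06 SE, adjusted p = 0.748 in limma). Mageb4 was at 1.80, 1.54 and 2.10 FPKM in KO and 1.90, 1.99 and 2.33 FPKM in WT, again overlapping (log2 difference -0.13 ± 0.09 SE, adjusted p = 0.518 in limma). The ratio of Mageb5 to Mageb16 within a library was 2.06 ± 0.130 in KO and 1.17 ± 0.127 in WT (SD, n = 3 each). All KO ratios lay above all WT ratios, and the group means of the log2 ratios differed by 0.82. A two-sided exact permutation test gave p = 0.1, which is the lowest value this number of libraries can reach. The pair was chosen after the values were seen. Mageb18 was at 0.400 to 0.669 FPKM in KO and 0.554 to 0.627 FPKM in WT. The pseudogene Mageb16-ps1 did not exceed 0.0205 FPKM, under its floor of 3 fragments in every library.

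**Figure D2:**
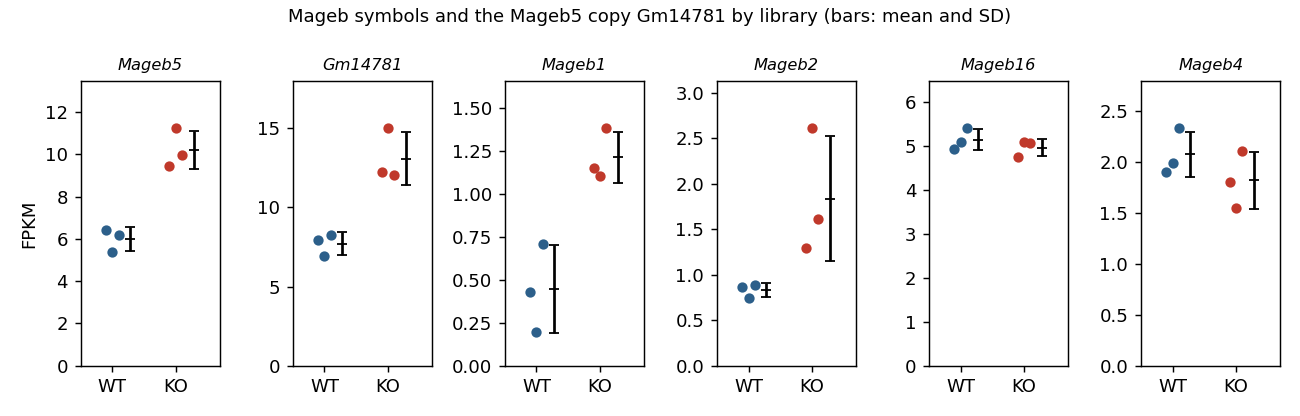
Level in FPKM of Mageb5, its copy Gm14781, Mageb1, Mageb2, Mageb16 and Mageb4 in each library, each panel from 0 on its own scale; points are libraries (blue WT, red KO) and bars the mean and SD of 3. KO and WT libraries lie apart in the first 4 panels and overlap in the panels of Mageb16 and Mageb4.

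Mageb1, Mageb2, Mageb5 and Gm14781 lie close together, so the symbols around Mageb5 were examined; this window was chosen after the values were seen. Within 1.5 Mb of the start of Mageb5 on either side the tables hold 12 symbols, of which 10 were tested, 5 called higher and 0 lower, beside 14.2% called higher among X-linked symbols and 0.788% among all. Mageb5 and Gm14781, which prompted the choice, are among the 5. They are near copies that may share reads, so the 5 are not all separate calls. Near copies were looked for only for the Mage members and not for the other symbols of the window. The called ones, beside Mageb5 and Gm14781, were 1700084M14Rik (log2 difference 1.25), Gm5941 (1.01) and 1700003E24Rik (1.23). Gm5941 lies within the bounds of Mageb18, on the other strand, and was at 150 ± 13.0 FPKM in KO and 74.1 ± 8.51 FPKM in WT (SD, n = 3 each; limma adjusted p = 0.00105). Not every gene of the window moved this way. Gm5072, between Mageb2 and Gm14781, had a log2 difference of -0.25, and Gm5071, between Mageb5 and Mageb1, had one of -0.19 (adjusted p of 0.327 and 0.388 in limma).

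**Figure D3:**
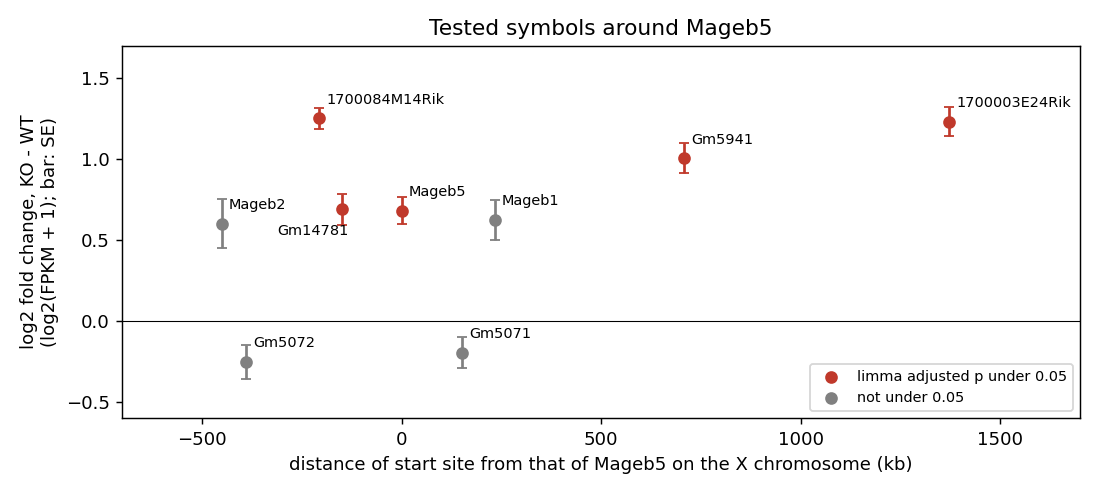
Log2 fold change (KO minus WT, log2(FPKM + 1), bars SE) of tested symbols against the distance of their start from that of Mageb5 on the X chromosome in kb; red points passed limma's adjusted threshold and grey ones did not. Mageb2, Gm14781, Mageb5 and Mageb1 sit between 0.60 and 0.69 on this scale, which compresses low levels (the FPKM means are 2.20-, 1.697-, 1.71- and 2.73-fold apart), and Gm5072 and Gm5071 among them sit below 0; BC061195, listed at 0 in 5 libraries, is not drawn.

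The Magea subfamily lay the other way. Its sum was 2.68, 2.27 and 3.30 FPKM in KO and 3.39, 3.46 and 3.92 FPKM in WT, so every KO library was below every WT library, though KO replicate 3 came near WT replicate 1. The means were 2.75 ± 0.519 and 3.59 ± 0.289 FPKM (SD, n = 3 each), a log2 ratio of -0.38. The 6 symbols Magea1, Magea2, Magea3, Magea5, Magea6 and Magea8 are near copies of one another in a cluster between 154924012 and 155093666 of the X chromosome. They summed to 1.63, 1.34 and 1.995 FPKM in KO and 2.63, 2.17 and 2.49 FPKM in WT, with no overlap and a log2 ratio of -0.56. The ratio was -0.42 without KO replicate 2 and -0.71 without KO replicate 3. Magea4 and Magea10, which have no near copy by the same limits and lie elsewhere on the X chromosome, summed to 0.932 to 1.31 FPKM in KO and 0.755 to 1.43 FPKM in WT, which overlapped.

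None of these single symbols passed a test. With a pseudocount of 0.1 and a filter of 0.1 FPKM, an analysis chosen after the values were seen, 0 of 8 Magea symbols were called by limma among 17695 symbols, while 2 were lower and 0 higher at a limma p under 0.05 before adjustment, as were 7.69% and 5.04% of all symbols. In that fit 0.497% of all symbols were called higher and 0.271% lower. Magea5 was at 0.376, 0.403 and 0.436 FPKM in KO and 0.648, 0.491 and 0.727 FPKM in WT, without overlap (log2 difference -0.50 ± 0.17 SE, adjusted p = 0.283 in limma). Among symbols of at least 0.1 FPKM, 13.7% had all KO libraries below all WT libraries and 6.11% had all above. Magea3 was at 0.187 to 0.334 FPKM in KO and 0.308 to 0.835 FPKM in WT, which overlapped (log2 difference -0.74, adjusted p = 0.385 in limma). Fold changes of the other 6 lay between -0.62 (Magea1) and 0.08 (Magea4). Magea1 was listed at 0 in KO replicate 2, and its highest value equals about 5.69 fragments. The lower sum of the spermatogonia markers in KO, given above, moves in the same direction as the Magea sum. Of its 7 tested markers 4 had a negative and 3 a positive log2 difference and 0 were called, and its part in the Magea result was not tested.

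Germ-cell and broadly expressed subfamilies were then set side by side as sums. The 16 Magea and Mageb symbols summed to 21.5, 24.5 and 26.7 FPKM in KO and 18.5, 17.5 and 22.6 FPKM in WT. These overlapped at KO replicate 1 and WT replicate 3, and the log2 ratio of the means was 0.31. Mageb3, at 2.59 FPKM in WT replicate 3 and listed at 0 in KO replicate 1, makes that overlap. Without it the sums were 21.5 to 24.5 FPKM in KO and 17.5 to 19.97 FPKM in WT. Without Mageb1, Mageb2 and Mageb5 the remaining 13 symbols had a log2 ratio of -0.16. The symbols left out were picked for their higher level in KO, so leaving them out had to lower the ratio. The 6 Maged, Magee, Mageh and Magel symbols summed to 49.6, 49.1 and 53.3 FPKM in KO and 49.1, 52.6 and 54.6 FPKM in WT, with overlap and a log2 ratio of -0.04. Within each library, the germ-cell sum was 43.5%, 49.9% and 50.1% of the broad sum in KO and 37.8%, 33.3% and 41.3% in WT. Every KO share was above every WT share. Such a separation held for 5.92% of all tested symbols in this direction, counted on single levels and not on ratios of sums. The germ-cell sum without Mageb5 was 12.08, 13.28 and 16.73 FPKM in KO and 12.11, 12.14 and 16.38 FPKM in WT, which overlapped. Its share of the broad sum was not computed, so the separation of the shares is given only with Mageb5 included.

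**Figure D4:**
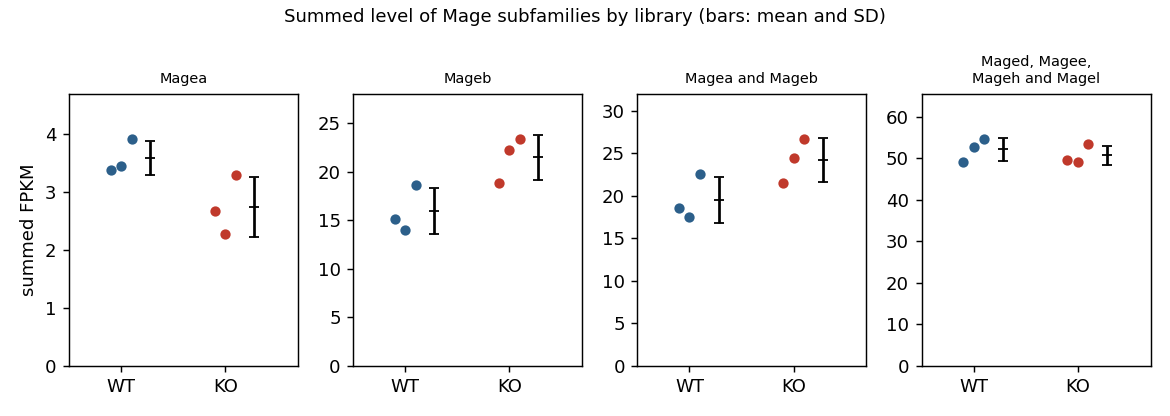
Summed FPKM of Magea, of Mageb, of both, and of Maged, Magee, Mageh and Magel symbols in each library, each panel from 0; points are libraries (blue WT, red KO) and bars the mean and SD of 3. KO libraries lie below WT for Magea, above WT for Mageb, and overlap WT for Magea with Mageb and for the broad subfamilies. For Mageb, KO replicate 1 (18.87 FPKM) and WT replicate 3 (18.64 FPKM) nearly touch.

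Of the broadly expressed members, Maged1, which encodes an adaptor of neurotrophin receptor signalling, was at 38.8, 38.7 and 41.6 FPKM in KO and 37.7, 38.8 and 41.6 FPKM in WT. The groups overlapped fully, and the log2 difference of 0.01 ± 0.06 (SE, adjusted p = 0.925 in limma) turned to -0.02 without KO replicate 3 or WT replicate 1. Maged2, mutated in a human disorder of renal salt handling before birth, was at 9.31, 8.45 and 10.1 FPKM in KO and 9.92, 11.8 and 11.5 FPKM in WT. Its libraries overlapped, and it did not pass (log2 difference -0.23 ± 0.08 SE, adjusted p = 0.268 in limma). Magee1, a single-exon gene, was at 0.997, 1.05 and 1.02 FPKM in KO and 0.821, 0.915 and 0.939 FPKM in WT. These did not overlap, as for 5.92% of all tested symbols in this direction. Yet the log2 difference of 0.10 ± 0.07 (SE) had an adjusted p of 0.51 in limma. Mageh1, at 0.469 to 0.912 FPKM in KO and 0.579 to 1.04 FPKM in WT, and Magef1, at 0.406 to 0.628 and 0.343 to 0.505 FPKM, overlapped between groups. Magel2, an imprinted gene of the Prader-Willi region, and Magee2 stayed at or under 0.00635 and 0.0135 FPKM, less than the level of 3 fragments in every library.

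The family has members under other symbols, and its proteins act with ligases. Ndn, the imprinted neighbour of Magel2, was at 1.23, 1.04 and 1.23 FPKM in KO and 1.35, 2.12 and 1.63 FPKM in WT. Its groups did not overlap, as for 15.8% of all tested symbols in this direction, and it did not pass (log2 difference -0.31 ± 0.11 SE, adjusted p = 0.245 in limma). Nsmce3, the Mage subunit of the Smc5 and Smc6 complex, was at 11.4 ± 1.25 FPKM in KO and 11.4 ± 0.253 FPKM in WT (SD, n = 3 each). Its log2 difference of -0.0053 (adjusted p = 0.978 in limma) was 0.0345 and 0.0228 under the other scalings. Tro stayed between 0.290 and 0.394 FPKM. Of 22 partner genes (ligases, subunits of the Smc5 and Smc6 complex, retromer and WASH complex genes among them), 20 were tested, and limma called 0 higher and 0 lower (0 and 2 before adjustment, at p under 0.05, near the 5.38% and 8.89% of all tested symbols). Their median log2 fold change was -0.06, beside -0.04 over all tested symbols. The smallest p-values belonged to Skp2, a subunit of an SCF ubiquitin ligase (log2 difference -0.19, adjusted p = 0.19 in limma), Trim28, the KAP1 co-repressor that Mage proteins bind (-0.17, 0.279), Pja1, a RING ligase bound by Maged1 (-0.12, 0.353), and Trim27, a partner of Magel2 (-0.13, 0.374). Trim31 and Lnx1 were listed at 0 in all libraries.

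The start sites of the subfamilies differ in sequence. Promoters of 19 of the 23 members were found in the RefSeq table (GRCm38.p6, 300 bases, most of them before the start), as 22 sequences because Maged2 has 4. CG dinucleotides, the sites of DNA methylation, numbered 0 to 20 in the 13 Magea and Mageb promoters, with a median of 2. They numbered 8 to 20 in the 9 promoters of the broad subfamilies, 4 of them of Maged2, with a median of 14. All promoters of the table had a median of 7. Mageb5 had 1 and its neighbour Mageb18 had 1, a number that 14.1% of all promoters have or fall below. Mageb16 had 6, Mageb4 had 11 and Maged1 had 20. These are shown because Mageb5 alone among them rose, with each CG in capitals (Mageb5 at chrX:91782927-91783226, Mageb16 at chrX:79671386-79671685, Mageb4 at chrX:86256170-86256469 and Maged1 at chrX:94541976-94542275, all on the minus strand, 5′ to 3′ of the gene).
Mageb5: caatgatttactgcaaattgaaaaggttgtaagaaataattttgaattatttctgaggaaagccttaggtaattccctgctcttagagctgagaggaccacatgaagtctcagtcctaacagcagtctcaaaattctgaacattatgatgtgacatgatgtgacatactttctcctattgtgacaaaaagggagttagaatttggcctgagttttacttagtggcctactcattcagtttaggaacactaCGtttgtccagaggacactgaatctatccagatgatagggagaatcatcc
Mageb16: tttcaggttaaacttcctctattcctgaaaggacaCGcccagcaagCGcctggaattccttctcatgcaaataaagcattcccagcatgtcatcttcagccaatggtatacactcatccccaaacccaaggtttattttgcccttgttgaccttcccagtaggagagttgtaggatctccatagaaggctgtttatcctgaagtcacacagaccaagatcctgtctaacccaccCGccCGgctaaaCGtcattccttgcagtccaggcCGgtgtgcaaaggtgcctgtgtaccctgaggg
Mageb4: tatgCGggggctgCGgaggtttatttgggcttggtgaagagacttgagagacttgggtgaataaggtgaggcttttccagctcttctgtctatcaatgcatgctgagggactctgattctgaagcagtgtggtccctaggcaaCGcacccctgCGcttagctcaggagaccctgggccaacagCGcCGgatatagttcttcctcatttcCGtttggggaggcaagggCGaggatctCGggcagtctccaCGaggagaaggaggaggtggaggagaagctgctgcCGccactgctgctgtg
Maged1: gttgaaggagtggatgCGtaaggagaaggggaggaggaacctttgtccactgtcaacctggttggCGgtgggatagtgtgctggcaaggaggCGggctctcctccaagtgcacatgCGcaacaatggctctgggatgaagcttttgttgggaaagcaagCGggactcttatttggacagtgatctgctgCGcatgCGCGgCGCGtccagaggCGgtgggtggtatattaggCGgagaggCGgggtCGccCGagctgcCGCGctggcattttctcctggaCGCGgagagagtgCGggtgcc
The Mageb5 stretch holds its single CG near the start, whereas those of Maged1 are spread along the window and dense toward the start. Mageb18 also had 1 CG and its groups overlapped, and Magea3 and Magea5 had 0, all of them under 1 FPKM. Whether the CG count goes with the difference between KO and WT was not tested. The core of the Ets motif, CCGGAA on either strand, was in 3 of the 22 promoters (Magea2, Magea8 and 1 of Maged2), and in 14.9% of all promoters. The cyclic AMP response element TGACGTCA was in 0 of the 22 and in 1.79% of all. TATAAA on either strand was in 3 (Mageb18, Magel2 and 1 of Maged2) and in 13.6% of all. Mageb1 and Mageb2 were not among the matched promoters.

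**Figure D5:**
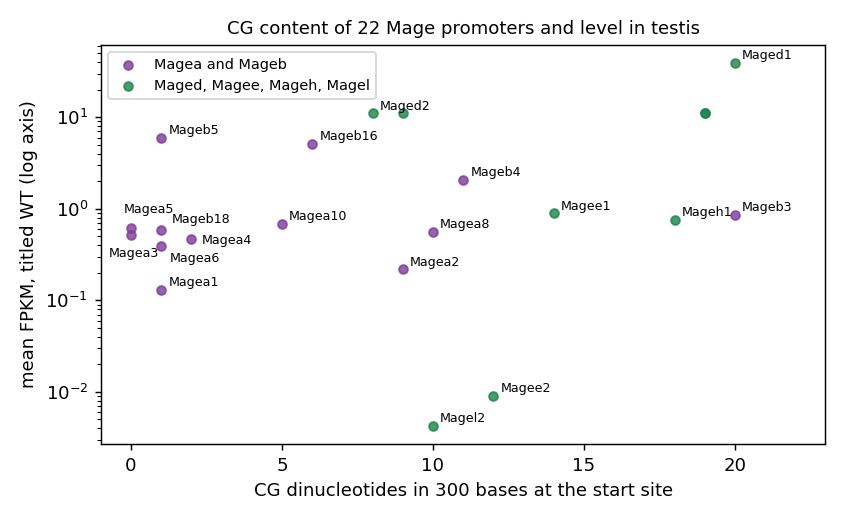
Number of CG dinucleotides in the 300 bases at each start site against the mean FPKM in WT on a log axis; points are the 22 promoters (purple Magea and Mageb, green the broad subfamilies), and the 4 of Maged2 share 1 level. Broad members lie at 8 CG or more, while most germ-cell members lie lower; the level of Mageb3 rests on 1 WT library.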

How the data were processed

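Total RNA of testis was extracted with Trizol and made into directional NEBNext Ultra II libraries, per the labels' protocols. The submitters' processing notes name HISAT2 and mm10; the quantifier, annotation and strand setting were not named there or elsewhere (not given in the sources used here). FPKM is the unit inferred for the numbers the authors deposited, which they had divided by length and depth: they are not whole, and low values times transcript length cluster at whole multiples of 1 fragment. That step was read as the commonest log10 value (bins of 0.02) in symbols with 1 GENCODE transcript. It gave the depth and the floor of 3 fragments, both approximate and for counting error only. Fragments per member use its longest transcript.

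Rows were summed per symbol (333 symbols stand on 1078 of 25910 rows). The test was limma 3.58.1 (R 4.3.3, with trend and robust estimation) on log2(FPKM + 1), for symbols whose KO or WT mean reached 1 FPKM, adjusted by Benjamini-Hochberg over 12952 symbols. It was tried on simulated data. Fold changes on this scale understate those of low genes. Sums over members were described without a test. A near copy matched 50% or more of a member's longest transcript with 90% or higher identity (blastn 2.17.0). Same-numbered libraries were not paired: deviations from group means correlated at 0.0676, -0.133 and 0.0628. Named genes were every member, Ndn, Nsmce3, Tro, the target, and partners that passed or had the 4 smallest p-values. Alternatives were other pseudocounts, filters and scalings, no robust estimation, the highest row per symbol, a replicate block and single libraries left out. Members and lists were chosen with earlier results of these data known. The exact test used SciPy 1.17.1.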

Additional observations from a re-analysis of the deposited data

How the results depend on the processing

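The count of 1 Mage symbol higher in KO was 0 with the replicate number as a block, where the log2 fold change of Mageb5 stayed 0.68 (limma adjusted p = 0.0519) and that of Gm14781 0.69 (0.0952). That block also lowered all calls from 149 to 50, and the numbers are not known to pair libraries. Leaving out single libraries gave 1 to 2 higher symbols. Counts of lower members and of partner genes in either direction were 0 under every alternative run. Mageb5 passed under every alternative but the block. The log2 ratio of the Magea and Mageb sum (0.31) was 0.0511 without Mageb5, the symbol with the highest mean, and -0.16 without Mageb1, Mageb2 and Mageb5. That of the broad sum (-0.04) was -0.22 without Maged1 and crossed 0 to 0.0037 with median-of-ratios scaling. Of single genes, those that crossed 0 were Maged1 (0.01), which ran from -0.0208 to 0.0522 with single libraries left out, and Nsmce3 (-0.0053), which ran from -0.0836 to 0.0575 in that way and was 0.0345 with median-of-ratios and 0.0228 with upper-quartile scaling. Over all symbols, 149 calls became 88 with no filter and 73 to 233 with single libraries left out. The share of calls that were higher, 102 of 149, was 85 of 113 with median-of-ratios and 121 of 154 with upper-quartile scaling. Sums of Magea, Mageb, Mageb1 with Mageb2, and Mageb5 with Gm14781 kept their direction and separation of groups under both scalings, with the highest row per symbol and without any single library. For Mageb that separation was narrow, with 18.87 FPKM in KO replicate 1 and 18.64 FPKM in WT replicate 3. Alternatives that leave out Mageb3 or Mageb1, Mageb2 and Mageb5, and the pseudocount of 0.1 with a filter of 0.1 FPKM, were chosen after seeing the data. Depth limits the Magea symbols: apart from Magea10, none held over 36.8 fragments in a library. With only the higher row kept, Mageb1 was under the filter and gave no value.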
